A study of Mus musculus with 6 samples.

Results

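The p53 target genes are 32 genes that the transcription factor p53 is known to activate, chosen by name from the 54532 genes listed for these libraries. All 32 were found, each listed once and as protein coding, on 17 chromosomes. The study set femurs of ovariectomized mice that received zingerone, a ginger phenol, beside femurs of ovariectomized mice given saline, and the labels list 3 samples of each. Values could be tied to labels for the OVX group alone, which is ovariectomized mice labelled wild type and given saline, so its 3 libraries, called 1, 2 and 3, are described and the effect of zingerone on these genes was not analysed here. Ovariectomy removes the main source of estrogen and serves as a model of postmenopausal bone loss. The labels used here give neither strain nor age, and their titles give 8, 9 and 10 weeks to libraries 1, 2 and 3 without saying what the weeks count. They also name RAW264.7, a macrophage-like cell line, as a characteristic, whereas the extraction text describes RNA from powdered femur.

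p53 is held low in unstressed cells because Mdm2, itself a p53 target, ubiquitinates it and sends it to the proteasome. DNA damage, oncogene activity or nucleolar stress frees p53 from Mdm2, and it then binds DNA as a tetramer at pairs of short half-sites and switches on genes of cell cycle arrest, apoptosis, DNA repair and metabolism. In bone marrow p53 is known for the death and arrest of blood progenitors after radiation, and in the osteoblast lineage for restraint of bone formation. The study's title links p53 to the genes Sat1 and Gpx4 and to ferroptosis, a form of cell death by lipid peroxidation.

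Matches to the p53 half-site consensus are shown here for members whose promoter holds one. RefSeq promoters on build GRCm38.p6, which run from 250 bases before to 50 bases after a gene's start, were listed for 23 of the 32 members, 30 promoters in all. The p53 half-site consensus is 10 bases long and is its own reverse complement, so 1 search covers both strands. It was found in 11 of the 30 promoters of the members, or 36.7%, and in 8.36% of all 32851 promoters of the same length. It occurred at 10 members, with the same match of Aen counted for both of its listed starts. The members were chosen as genes that p53 is known to activate, so their higher share is not a result of these data. The windows below run 5′ to 3′ on the strand of the gene, with capitals on each match to the half-site consensus.
Cdkn1a (chr17:29090886-29090957, plus strand): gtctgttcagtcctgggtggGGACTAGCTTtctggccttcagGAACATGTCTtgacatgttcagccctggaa
Mdm2 (chr10:117710915-117710964, minus strand): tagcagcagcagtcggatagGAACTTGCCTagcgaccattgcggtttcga
Ppm1d (chr11:85311102-85311151, plus strand): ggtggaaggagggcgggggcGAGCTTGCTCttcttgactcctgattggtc
Ccng1 (chr11:40755442-40755491, minus strand): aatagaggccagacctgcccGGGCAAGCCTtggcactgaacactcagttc
Bax (chr7:45467070-45467119, minus strand): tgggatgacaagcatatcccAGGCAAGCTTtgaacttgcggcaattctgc
Gadd45a (chr6:67037418-67037467, minus strand): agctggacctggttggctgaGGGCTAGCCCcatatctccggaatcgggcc
Aen (chr7:78895917-78895966, plus strand): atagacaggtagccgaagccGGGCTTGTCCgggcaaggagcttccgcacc
Ei24 (chr9:36797315-36797364, minus strand): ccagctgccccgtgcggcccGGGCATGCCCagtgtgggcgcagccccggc

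Of the 10 members with a half-site, 8 are printed, and Sesn1 and Polk also held 1 each. Cdkn1a was the member with a pair of half-sites in 1 promoter, 12 bases apart and spanning positions -73 to -42 from the first of its 2 listed starts. Only exact matches were counted, and the 10 bases directly after the later match differ from the consensus in their first base alone. Pairs no more than 13 bases apart were found in 24 of all 32851 promoters, or 0.0731%. The second listed start of Cdkn1a lies 2790 bases further along the gene, and its own promoter held no half-site. In Ei24 the half-site spanned positions -10 to -1 from the start, and in Aen it spanned positions 10 to 19 from the first listed start and -121 to -112 from the second. A match is a description of letters, and binding of p53 was not measured. The median mean level was 17.0 FPKM for the 10 members with a half-site and 5.24 FPKM for the 13 whose listed promoters held none.

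The 3 libraries held 17017907, 16964740 and 16581579 reads. FPKM counts fragments per unit of gene length and of library total, and so levels of different genes can be set beside each other. Such comparisons depend on the length listed for each gene, and the lengths of the transcripts expressed were not measured. The 14011 genes whose mean reached 1 FPKM were tested. Globin, neutrophil and bone transcripts were all present, with marker lists of erythroid cells at 3.75% to 4.66%, neutrophils at 2.16% to 2.29% and osteoblasts at 0.742% to 2.88% of reads, so the libraries hold a mixture of marrow and bone. The series' design text speaks of biological replicates but no label names separate animals, and p-values between libraries measure only the spread between these libraries. In such a mixture, fewer cells of a type and less RNA per cell cannot be told apart.

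Together the 32 members took 0.146%, 0.136% and 0.137% of reads in libraries 1, 2 and 3. The library totals implied by FPKM were 1.02, 0.993 and 0.997 times these reads, so shares of those totals would set library 1 slightly lower. Mean levels of the members spanned 472-fold, and the median of all 32 was 5.97 FPKM. Over the 28 members that reached 1 FPKM the median was 7.24 FPKM, beside 7.08 FPKM over the 14011 tested genes. At 20 FPKM or more were 6 members, 14 lay between 5 and 20 FPKM, 8 between 1 and 5 FPKM, and 4 were below 1 FPKM and were not tested. In the plot of levels by role, library symbols of most genes lie close together compared with the distance between genes.

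**Figure D1:**
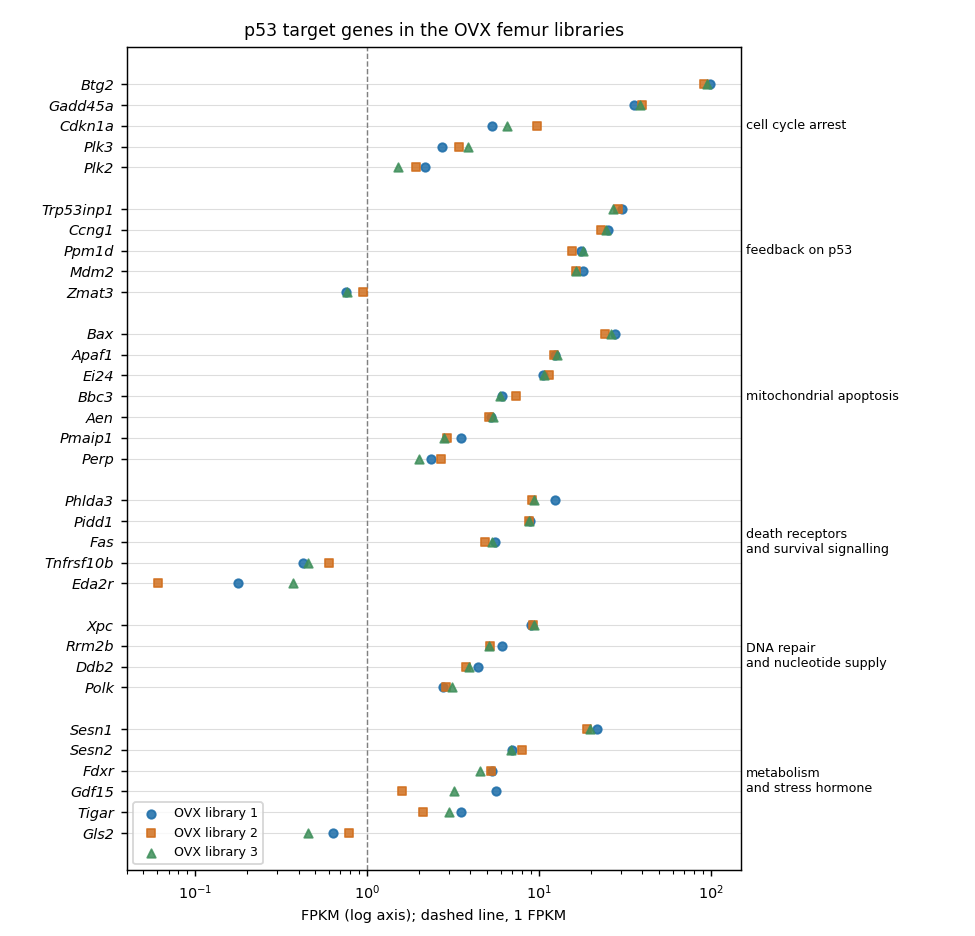
FPKM of the 32 p53 target genes in OVX libraries 1, 2 and 3 on a log axis, grouped by role, with 1 symbol for each library and a dashed line at 1 FPKM. Btg2 is highest at a mean of 95.5 FPKM, and Zmat3, Gls2, Tnfrsf10b and Eda2r lie left of the line.

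Among the genes of cell cycle arrest, Btg2 and Gadd45a were abundant and Cdkn1a, the best known of them, was not. Btg2, an antiproliferative cofactor of mRNA deadenylation (ENSMUSG00000020423, mm10 chromosome 1, 134075170 to 134079120, minus strand), stood at 99.3, 91.8 and 95.6 FPKM in libraries 1, 2 and 3. Gadd45a, a stress protein that restrains the G2 to M transition, stood at 36.0, 39.8 and 38.5 FPKM. Both had narrow ranges, with the highest library 1.08 times the lowest for Btg2 and 1.11 times for Gadd45a. On its many reads Btg2 still differed between libraries by a chi-square test of reads (Benjamini-Hochberg adjusted p = 6.85e-05), a call that ended without library 1, at 0.117.

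Cdkn1a, which encodes the cyclin-dependent kinase inhibitor p21 (ENSMUSG00000023067, chromosome 17, 29090976 to 29100727, plus strand), was measured on 329, 581 and 383 reads in libraries 1, 2 and 3, which is 5.36, 9.71 and 6.52 FPKM. Library 2 stood apart, with an exact Poisson 95% interval of 8.93 to 10.5 FPKM, against 4.80 to 5.97 in library 1 and 5.88 to 7.21 in library 3. The difference between libraries was 1.81-fold and exceeded counting error (chi-square adjusted p = 8.88e-17). Without library 2 it was no longer called, with an adjusted p of 0.0828 by the same chi-square test. Within a library Gadd45a was 6.72, 4.10 and 5.91 times as high as Cdkn1a.

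The polo-like kinases Plk3 and Plk2, both induced by stress, had low levels. Plk3 had 2.74, 3.42 and 3.87 FPKM in libraries 1, 2 and 3, and Plk2 had 2.16, 1.93 and 1.51. Library 3 was the highest for Plk3 and the lowest for Plk2. By the chi-square test Plk2 differed between libraries (adjusted p = 0.0229) and Plk3 missed the threshold of 0.05 (adjusted p = 0.0614), although Plk3 passed it with median-of-ratios scaling, at 0.0436, and without library 2, at 0.0395. The call for Plk2 ended without library 1, at an adjusted p of 0.151, and without library 3, at 0.389.

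Genes that act back on p53 had mean levels between 0.822 and 28.7 FPKM, and Mdm2 and Ppm1d lay close together. Mdm2, the ubiquitin ligase of p53 (ENSMUSG00000020184, chromosome 10, 117688875 to 117710758, minus strand), stood at 18.2, 16.3 and 16.5 FPKM in libraries 1, 2 and 3. Ppm1d, the Wip1 phosphatase that removes activating phosphates from p53 and its kinases, stood at 17.6, 15.6 and 18.0 FPKM. Within a library Mdm2 was 1.03, 1.05 and 0.917 times as high as Ppm1d, so their order was not the same in every library.

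Ccng1, a cyclin G1 that brings a phosphatase to Mdm2, stood at 25.1, 23.1 and 24.5 FPKM in libraries 1, 2 and 3. Trp53inp1, a stress protein that promotes p53 phosphorylation, stood at 30.3, 28.7 and 27.1 FPKM. Both were highest in library 1, by 1.09-fold and 1.12-fold over the lowest library. Zmat3, an RNA-binding zinc finger protein that controls splicing, was far lower at 0.759, 0.945 and 0.762 FPKM. Zmat3 still held 150, 182 and 144 reads, because its listed length is 11435 bases. All 4 tested genes of this role differed between libraries by the chi-square test, beside 38.7% of all genes tested, with adjusted p of 1.21e-05 for Trp53inp1, 0.00217 for Mdm2, 0.00867 for Ppm1d and 0.0418 for Ccng1, and the call for Ccng1 was lost with median-of-ratios scaling, at 0.138. Without library 1 the adjusted p was 0.847 for Mdm2, 0.219 for Ccng1 and 0.121 for Trp53inp1. Without library 2 it was 0.960 for Ppm1d and 0.476 for Ccng1.

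Genes grouped here under mitochondrial apoptosis were led by the executioner and its caspase platform and not by the BH3-only initiators. The grouping is broad and also holds Ei24, Aen and Perp, described below. Bax, which forms pores in the outer mitochondrial membrane, stood at 27.7, 24.4 and 26.3 FPKM in libraries 1, 2 and 3. Apaf1, the scaffold of the apoptosome that activates caspase-9, stood at 12.4, 12.2 and 12.7 FPKM. Both had narrow ranges, 1.13-fold for Bax and 1.04-fold for Apaf1.

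Bbc3, which encodes the BH3-only protein PUMA, stood at 6.08, 7.32 and 5.98 FPKM, and Pmaip1, which encodes the BH3-only protein NOXA, at 3.54, 2.94 and 2.81 FPKM. Bbc3 was highest in library 2 and Pmaip1 in library 1. Bax was 4.56, 3.33 and 4.39 times as high as Bbc3 within libraries 1, 2 and 3, a mean of 4.09 ± 0.663 (SD, n = 3). It was 8.49 ± 0.777 times as high as Pmaip1 (SD, n = 3).

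Ei24, an endoplasmic reticulum protein, stood at 10.6, 11.5 and 10.7 FPKM, and Aen, a nuclease of apoptotic cells, at 5.26, 5.15 and 5.44 FPKM. Perp, a membrane protein of desmosomes and apoptosis, was the lowest of this role at 2.34, 2.71 and 2.01 FPKM. None of the 7 apoptosis genes passed the threshold in the chi-square test over all 3 libraries, beside 38.7% of all genes tested, and Bax came nearest with an adjusted p of 0.0544. Bax passed it without library 3, at 0.0222, and when only genes averaging 5 FPKM or more were tested, at 0.0481.

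Death receptors and the genes around them ranged from moderate levels to a few reads. Phlda3, which competes with Akt for membrane lipids (ENSMUSG00000041801, chromosome 1, 135766119 to 135769136, plus strand), was measured on 336, 241 and 243 reads in libraries 1, 2 and 3, or 12.5, 9.18 and 9.43 FPKM. Library 1 was 1.36 times as high as library 2, more than counting error gives (chi-square adjusted p = 0.000290), and the 2 other libraries were alike, with an adjusted p of 0.846 without library 1.

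Pidd1, the scaffold that activates caspase-2, was the steadiest member of all, at 8.88, 8.74 and 8.76 FPKM with a range of 1.02-fold. Fas, the receptor of Fas ligand, stood at 5.56, 4.85 and 5.31 FPKM. Tnfrsf10b, the mouse receptor of the death ligand TRAIL, had 0.425, 0.599 and 0.455 FPKM from 40, 55 and 41 reads. Fas was thus 10.9 ± 2.58 times as high as Tnfrsf10b within a library (SD, n = 3). Eda2r, the receptor of ectodysplasin A2, was the lowest member, at 0.177, 0.0605 and 0.370 FPKM from 18, 6 and 36 reads. It was lowest in library 2 and highest in library 3, on few reads, with exact Poisson 95% intervals of 0.105 to 0.279, 0.0222 to 0.132 and 0.259 to 0.512 FPKM in libraries 1, 2 and 3.

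DNA repair targets lay between 2.92 and 9.21 FPKM. Xpc, the lesion sensor of nucleotide excision repair, stood at 8.99, 9.28 and 9.37 FPKM in libraries 1, 2 and 3. Ddb2, which hands ultraviolet lesions to the same pathway, stood at 4.42, 3.78 and 3.91 FPKM. Xpc was 2.30 ± 0.230 times as high as Ddb2 within a library (SD, n = 3). Polk, a translesion polymerase, stood at 2.76, 2.88 and 3.14 FPKM. Rrm2b, the p53-induced small subunit of ribonucleotide reductase that supplies nucleotides outside S phase, stood at 6.14, 5.19 and 5.11 FPKM.

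Of these 4 genes, Rrm2b alone passed the chi-square test over all 3 libraries, at an adjusted p of 6.14e-05, with library 1 the highest and the other libraries alike (0.889 without library 1). The pseudogene Gm3362, on the same strand, and the antisense gene Gm49085 lie within its span, with 44.8% and 20.1% as many reads as Rrm2b, and Acp2 overlaps Ddb2 on the opposite strand with 2344 reads against the 560 of Ddb2. No strand setting of the counting was given, so reads of these neighbours may be shared, and the values of Rrm2b and Ddb2 are uncertain to that extent.

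Metabolic targets held the member with the widest range among those tested. Gdf15, a secreted stress cytokine that acts on the hindbrain (ENSMUSG00000038508, chromosome 8, 70629393 to 70632456, minus strand), was measured on 181, 50 and 98 reads in libraries 1, 2 and 3, or 5.66, 1.60 and 3.20 FPKM. Library 1 was 3.53 times as high as library 2, and the exact Poisson 95% intervals of all 3 libraries were apart, at 4.86 to 6.54, 1.19 to 2.11 and 2.60 to 3.90 FPKM. The difference exceeded counting error (chi-square adjusted p = 1.65e-16) and stayed so with any 1 library left out, at adjusted p between 1.90e-16 and 0.000396.

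Tigar, a phosphatase that lowers fructose-2,6-bisphosphate and so slows glycolysis (ENSMUSG00000038028, chromosome 6, 127085116 to 127109557, minus strand), had 3.53, 2.13 and 3.01 FPKM in libraries 1, 2 and 3. It too was lowest in library 2, by 1.66-fold (chi-square test, adjusted p = 5.18e-05), and was not called without that library, at 0.228. Of the sestrins, which restrain mTORC1, Sesn1 had 21.8, 19.0 and 19.8 FPKM and Sesn2 had 6.98, 7.98 and 6.91 FPKM. Sesn1 was highest in library 1 (chi-square test, adjusted p = 0.000496, and 0.458 without library 1) and Sesn2 in library 2 without passing the threshold (adjusted p = 0.170).

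Fdxr, the mitochondrial ferredoxin reductase, stood at 5.32, 5.25 and 4.55 FPKM. Gls2, the mitochondrial glutaminase that p53 induces, stood at 0.633, 0.786 and 0.453 FPKM from 38, 46 and 26 reads, too few to rank the libraries. Spryd4 overlaps Gls2 on the opposite strand with 534 reads, against 110 of Gls2 over the 3 libraries.

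In the order of mean levels, Btg2 was followed by Gadd45a, Trp53inp1, Bax, Ccng1, Sesn1, Ppm1d, Mdm2, Apaf1 and Ei24. Of the 31 pairs of neighbours in this order, 20 had library ranges that overlapped. Such overlap does not by itself leave the order open, because all genes were measured in the same libraries. Trp53inp1 stood above Bax, and Bax above Ccng1, in every library, although their ranges overlapped. Ppm1d and Mdm2, whose ranges also overlapped, changed order between libraries. The ranges of Btg2 and Gadd45a, of Gadd45a and Trp53inp1, of Ccng1 and Sesn1, of Sesn1 and Ppm1d, of Mdm2 and Apaf1, and of Apaf1 and Ei24 did not overlap. All neighbours between Sesn2 and Fdxr overlapped, a stretch that holds Cdkn1a, Bbc3, Rrm2b, Aen and Fas.

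Among the 28 members tested, 12 passed the chi-square test between the 3 OVX libraries, or 42.9%, beside 38.7% of all 14011 genes tested, so the members' share was near the background. The test calls a small difference more readily in a gene with many reads, and the tested members held between 233 and 13280 reads over the libraries. The highest library stood 2-fold or more above the lowest for 1 of the 28, Gdf15, beside 9.47% of all genes tested. The median range was 1.15-fold for the tested members and 1.15-fold for all tested genes. Beyond counting noise the median member varied by 6.37% (coefficient of variation) and the median tested gene by 5.35%. The plot of range against depth places the members within the cloud of tested genes.

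**Figure D2:**
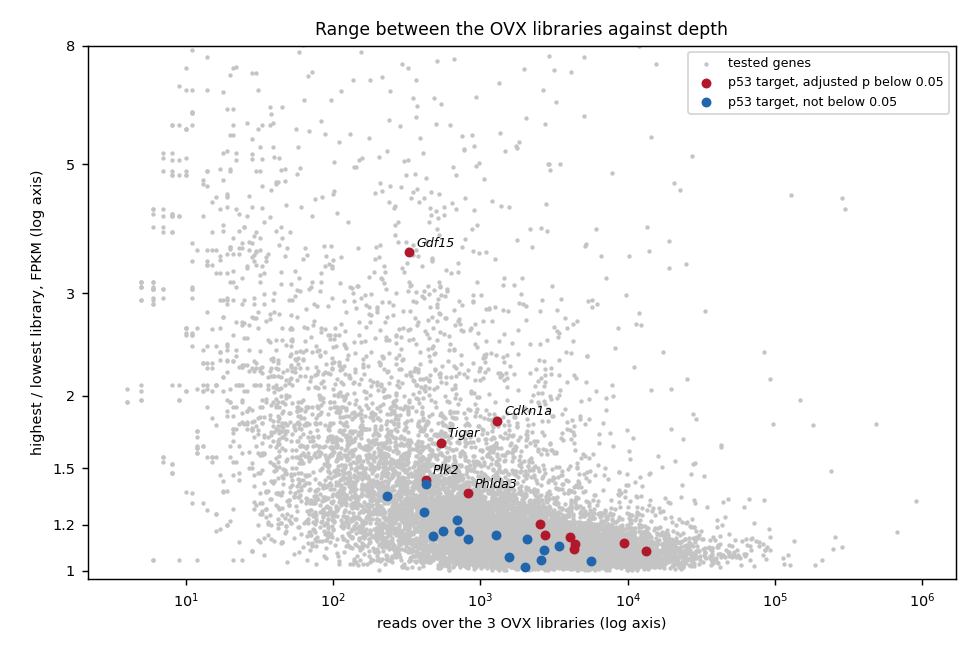
Highest over lowest OVX library in FPKM against reads summed over the 3 libraries, both on log axes, for the tested genes in grey and the 28 tested p53 targets in red where the adjusted p is below 0.05 and in blue otherwise. Gdf15 lies at 3.53-fold and Cdkn1a at 1.81-fold, and 164 genes above 8-fold and 108 genes with 0 reads in a library are not drawn.

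Library 1 was the highest for 16 of the 28 tested members, library 2 for 6 and library 3 for 6. The share for library 1 was 57.1%, beside 33.3% of all tested genes, and the shares for libraries 2 and 3 were 21.4% each, beside 34.8% and 31.9%. Among the 12 called members, library 1 was the highest for 10, with Cdkn1a highest in library 2 and Ppm1d in library 3, and among all 5418 called genes the share for library 1 was 39.5%. The steps were small, with a median of library 1 minus the mean of the others of 0.08 for the members on the log2(FPKM + 1) scale, beside 0.00 for all tested genes. Without library 1 the count of called members was 4, namely Cdkn1a, Gdf15, Ppm1d and Tigar. That was 14.3% of the members tested, beside 24.9% of all genes tested. The count was 9 without library 2, or 32.1%, beside 18.0% of all genes. It was 12 without library 3, or 42.9%, beside 29.8%. These comparisons are between libraries and not between conditions.

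**Figure D3:**
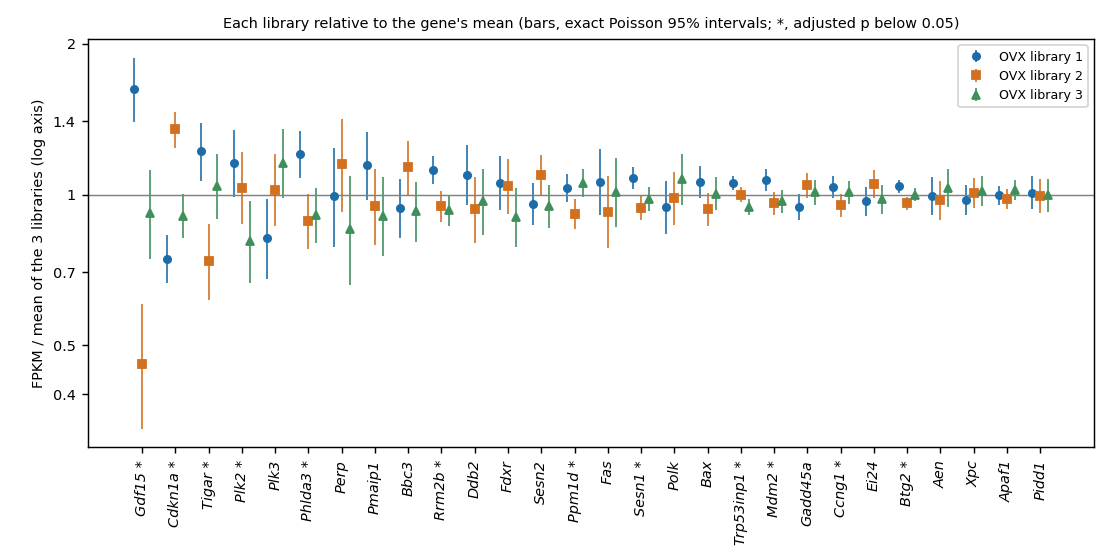
FPKM of each OVX library over the gene's mean of the 3 libraries, on a log axis, for the 28 tested p53 targets ordered by range, with exact Poisson 95% intervals as bars and a star where the chi-square adjusted p is below 0.05. Library 2 stands below the others for Gdf15 and Tigar and above them for Cdkn1a, and at the right end the bars of Aen, Xpc, Apaf1 and Pidd1 overlap.

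The tissue makeup of the libraries also differed, most of all in library 2. Summed over their lists, 12 osteoblast genes took 1.14%, 2.88% and 0.742% of reads in libraries 1, 2 and 3, 12 chondrocyte genes 0.0183%, 0.303% and 0.0221%, and 12 skeletal muscle genes 0.302%, 0.0245% and 0.190%. All 12 tested osteoblast and all 11 tested chondrocyte genes were highest in library 2, and all 11 tested muscle genes were lowest there. Cdkn1a was highest, and Gdf15 and Tigar were lowest, in this same library. In library 1, 10 of the 28 members were both called and highest. There 8 of 9 tested osteoclast genes were lowest, with the 10 genes of that list at 0.173%, 0.304% and 0.260% of reads. Other lists were extreme there too. Of the tested genes, 10 of 11 for muscle were highest in library 1, and 9 of 11 for chondrocytes and 7 of 9 for erythroid cells were lowest. Of the 10 tested B cell genes, 6 were highest in library 1, 3 in library 2 and 1 in library 3. Megakaryocyte genes took 0.200%, 0.128% and 0.202%, lowest in library 2 for all 6 tested. Macrophage genes took 0.206%, 0.211% and 0.210%. Proliferation genes took 0.415%, 0.402% and 0.433%, and 7 of the 10 tested differed between libraries by the chi-square test, with 7 highest in library 3. The part of tissue makeup in the differences of the p53 targets was not tested.

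**Figure D4:**
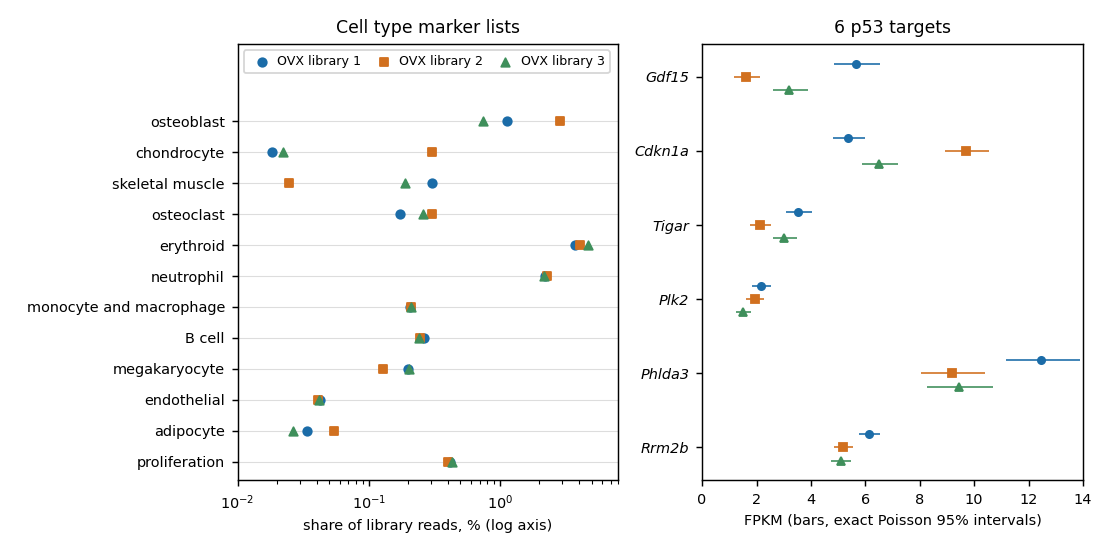
Left, share of reads of 12 marker lists in each OVX library, in percent on a log axis. Right, FPKM of the 6 called p53 targets with the widest ranges, with exact Poisson 95% intervals. Library 2 is apart in osteoblast, chondrocyte and muscle genes and in Cdkn1a and Tigar. Library 1 is apart in Phlda3 and Rrm2b, and all 3 libraries are apart in Gdf15.

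Trp53, which encodes p53 (ENSMUSG00000059552, chromosome 11, 69580359 to 69591873, plus strand), stood at 22.7, 23.2 and 23.2 FPKM in libraries 1, 2 and 3, a level between those of Ccng1 and Sesn1. Its reads gave no detectable difference between libraries (chi-square test, adjusted p = 0.998). The levels of p53 protein and its phosphorylation, which set p53 activity, were not measured. Cdkn1a stood at 0.236, 0.418 and 0.281 times the level of Trp53, and Mdm2 at 0.739 ± 0.0530 times (SD, n = 3).

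The list of p53 family genes and regulators held 20 genes, none of them among the 32 targets, of which 17 were tested and 5 differed between libraries by the chi-square test, beside 38.7% of all genes tested. Usp7, a deubiquitinase that stabilizes Mdm2 and p53, was the highest at 50.2, 47.6 and 51.3 FPKM. Mdm4, the partner of Mdm2 that masks the activation domain of p53, stood at 18.6, 16.3 and 16.4 FPKM, and Mdm2 was 0.997 ± 0.0176 times as high as Mdm4 within a library (SD, n = 3). Both were highest in library 1, and their ratio stayed within 0.976 to 1.01.

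The damage kinases were lower. Chek2 averaged 12.1 FPKM, Chek1 6.11 FPKM, Atm 4.28 FPKM and Atr 1.47 FPKM. Of these, Atm passed the chi-square test between libraries (adjusted p = 0.0262). The p53 relatives were close to absent, with Trp63 at 0.0483, 0.0637 and 0.0577 FPKM from 7, 9 and 8 reads, and Trp73 with 0, 0 and 1 read. With 3 reads as the limit for a count of 0, Trp73 could stand at up to 0.0314 FPKM in library 1 and 0.0322 in library 2. Cdkn2a, whose locus encodes the Mdm2 inhibitor Arf and the kinase inhibitor p16, had 0.494, 1.37 and 0.413 FPKM from 10, 27 and 8 reads, with the highest value in library 2, as for Cdkn1a.

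**Figure D5:**
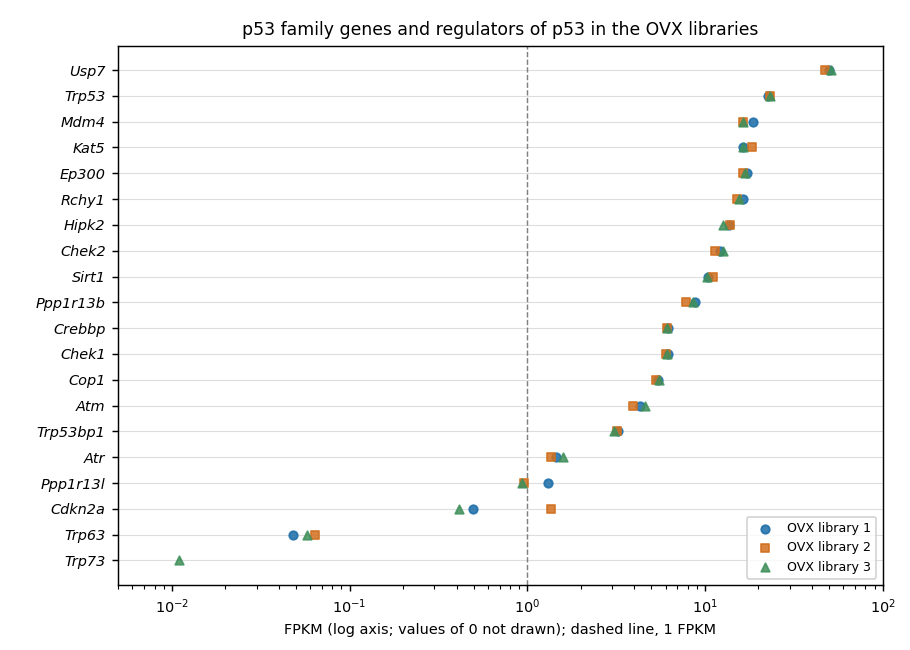
FPKM of 20 p53 family genes and p53 regulators in the 3 OVX libraries on a log axis, ordered by mean level, with a dashed line at 1 FPKM. Usp7 leads at a mean of 49.7 FPKM, the symbols of Trp53 nearly coincide at a mean of 23.0 FPKM, and Cdkn2a, Trp63 and Trp73 lie at or below the line in most libraries.

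Genes through which p53 is reported to act on ferroptosis formed a second list of 12, which includes the members Cdkn1a and Gls2. Of the 9 tested, 6 differed between libraries by the chi-square test, beside 38.7% of all genes tested. Gpx4, which removes lipid peroxides, and Sat1, the polyamine acetyltransferase, averaged 141 ± 8.67 and 63.8 ± 5.56 FPKM (SD, n = 3). In libraries 1, 2 and 3 Gpx4 had 145, 131 and 146 FPKM and Sat1 had 69.3, 63.7 and 58.2 FPKM. Both differed between libraries by the chi-square test, with adjusted p of 3.32e-08 for Gpx4 and 8.82e-12 for Sat1. Gpx4 was thus above every one of the 32 targets, and Sat1 above all of them but Btg2. Alox12, a lipoxygenase that p53-driven ferroptosis requires in tumour models, had 43.9, 27.1 and 44.4 FPKM in libraries 1, 2 and 3, so that library 2 was the lowest. The megakaryocyte genes, at 0.200%, 0.128% and 0.202% of reads, were also lowest there, and their part in the level of Alox12 was not tested. Alox15, another lipoxygenase of the list, had 33.2, 41.0 and 42.1 FPKM and was lowest in library 1. At the low end, Slc7a11, the cystine transporter that p53 represses, stood at 0.877, 0.674 and 1.05 FPKM, and Cbs had 0, 1 and 0 reads.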

How the data were processed

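Per the submitters' processing notes, reads of powdered femur were handled with Trimmomatic, FastQC, STAR and featureCounts on build mm10, and the sources used here give no version, strand setting or annotation. FPKM values, with a length for each gene, are what the authors deposited. A column was used where its name matched a library name in the labels, which held for 3 columns, all OVX. Names of 3 further value columns fit no label, and these were not used, so the planned limma comparison of zingerone with OVX was not run.

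FPKM times gene length recovered whole reads, to within 0.01 read, for 100% of values. The library totals implied by FPKM were 1.02, 0.993 and 0.997 times the recovered reads in libraries 1, 2 and 3, so relative to FPKM the chi-square test sets library 1 slightly higher. Genes averaging 1 FPKM or more were tested for differences between libraries by chi-square, setting their reads against the recovered total of each library, with Benjamini-Hochberg adjustment over all of them and a threshold of 0.05. Intervals are exact Poisson at 95% and, like the limit of 3 reads for a count of 0, cover counting error only. Differences on the log2 scale use FPKM + 1. Of the 32 genes, 30 have the same position in GENCODE M21. The rule for named genes was to account for all 32 members and to give values for Trp53, the genes in the study's title and the highest and lowest of each pathway list, while further genes of those lists were named after their values were seen. Members, roles and lists were chosen with earlier results of these data known. The test was checked on simulated data. Computing used scipy 1.17.1 and numpy 2.4.6 with pandas 2.3.3 under Python 3.11.15, and plots used matplotlib 3.10.9.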

Additional observations from a re-analysis of the deposited data

How the results depend on the processing

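Of the 28 members tested, 12 differed between libraries, beside 38.7% of all genes tested. With median-of-ratios scaling 12 did so, or 42.9%, beside 37.4% of all genes. With no filter 12 of 32 did so, or 37.5%, beside 22.4% of all genes, and among members averaging 5 FPKM or more 10 of 20 did so, beside 44.9%. The members called were partly others: Ccng1 was lost and Plk3 gained with median-of-ratios scaling, and Ccng1 was lost and Eda2r gained with no filter. With 1 library left out the count ran from 4 to 12 for the members, and from 2527 to 4177 for all genes, beside 5418 with all libraries. It was 4 without library 1, and fewer libraries also give the test fewer reads. The median level of the 32 members was 5.97 FPKM, ran from 5.78 to 6.18 FPKM with 1 library left out, and was 15.7 as TPM, a unit that rescales each library to 1 total and so moves every gene. The shift in mean level was under 1 SD for all 32 members and for Trp53 under median-of-ratios scaling and under FPKM from the reads listed. For FPKM the median-of-ratios factor was 1.002 in each library, so that scaling could hardly move a level. No paired analysis was possible because the libraries used are of 1 group. The alternatives planned for zingerone against OVX were not run. Depth limits statements on Eda2r, Gls2 and Tnfrsf10b, which had 6 to 55 reads per library.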
